A study of Mus musculus with 24 samples.

Results

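A group of 10 genes that make, regenerate or spend NADPH was followed in ventricle and cortex of Tatdn1+/+ and Tatdn1-/- mice: Nnt, Por, Nadk, Nadk2, Idh1, Idh2, Me1, Me3, G6pdx and Pgd. The genes were chosen by name, and the choice used measured values: the group was picked because Nnt was lower and Por and Nadk were higher in the knockout. A member was read from the probe set that carries its symbol alone, out of 22206 gene-level probe sets and 19578 genes with a single symbol. Of the 10 genes, 9 were measured, each by 1 probe set, and G6pdx was not analysed here because no table used here gives its symbol to a probe set. Nnt and Por were named through the probe set and symbol columns of the study's supplementary table, since the platform table used here names neither.

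The arrays were Mouse Clariom S HT, hybridised with RNA of 12 mice aged 2 months, with 1 ventricle array and 1 cortex array per mouse (24 arrays). The 6 Tatdn1+/+ mice were wild type (labelled tatd+/+) and the 6 Tatdn1-/- mice (tatd-/-) lacked exon 3 of Tatdn1 in the whole body, after a cross with CAG-Cre mice from which the transgene had then been bred out. Each genotype held 3 males and 3 females, none of which had been treated, and the strain was described as C57BL/6J, a strain known to carry a deletion inside Nnt in some of its colonies; which Nnt allele each mouse carried is not stated in the labels or the methods. The study described the heart samples as left ventricle, and the labels as cardiac ventricle. In what follows a value is a normalised log2 intensity as deposited, a difference of 1 is a 2-fold change, and no gene's level is set against another's, because probe sets differ in brightness.

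NADPH is the electron donor of reductive synthesis and of the glutathione and thioredoxin systems that remove peroxides. It is made from NADH and NADP+ by Nnt, a proton-driven transhydrogenase of the inner mitochondrial membrane, and from NADP+ by dehydrogenases in the cytosol (Idh1, Me1, Pgd and G6pdx) and in mitochondria (Idh2 and Me3). NADP+ itself comes from NAD+ through the cytosolic kinase Nadk and the mitochondrial kinase Nadk2. Por, cytochrome P450 oxidoreductase, spends NADPH: it passes electrons to the P450 enzymes of the endoplasmic reticulum, to haem oxygenase and to squalene epoxidase.

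The samples were checked before the members were read. Tatdn1 averaged 6.85 ± 0.25 (SD, n = 6) in wild-type and 5.49 ± 0.39 in knockout ventricle, where the groups did not overlap, and 5.77 ± 0.34 and 4.99 ± 0.315 in cortex, where 5 of 6 knockout arrays lay below all wild-type arrays. The 6 cardiomyocyte markers averaged 10.73 to 10.99 on the ventricle arrays and 3.60 to 3.86 on the cortex arrays, and the 5 neuron markers averaged 9.98 to 10.21 on the cortex arrays. The knockout ventricle of mouse F77-2 stood apart: its 4 atrial markers averaged 9.09, against 4.67 to 5.34 on the other 11 ventricle arrays. The knockout ventricle of M78-1 had the highest neuron markers, 5.21 against 2.97 to 4.34. In cortex the 4 striatal markers were lowest in the wild-type mouse M75-2 (6.15), with the others at 6.52 to 7.48. Array medians over all 29129 entries, including those left out later, ran from 2.55 to 2.86.

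Nnt was lower in the knockout in both tissues, and the difference was the larger one in cortex. On the wild-type ventricle arrays Nnt read 8.62, 8.61 and 7.95 in the males M75-0, M75-1 and M75-2, and 8.38, 9.07 and 8.97 in the females F76-1, F76-2 and F76-3. On the knockout ventricle arrays it read 8.18, 8.37 and 8.25 in the males M78-0, M78-1 and M77-1, and 8.35, 8.24 and 8.28 in the females F77-1, F77-2 and F77-3. Every knockout value lay within 0.2 of the others and inside the wild-type range, with 5 wild-type mice above all knockout mice and M75-2 below them all. The means were 8.60 ± 0.41 and 8.28 ± 0.07 (SD, n = 6 each), a knockout minus wild-type difference of -0.33 (SE 0.17).

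In cortex Nnt was far dimmer and the genotypes were apart. The wild-type values, in the same order of mice, were 4.78, 4.56, 4.25, 4.51, 4.46 and 4.08. The knockout values were 3.75, 2.64, 3.67, 3.80, 3.27 and 3.90. The lowest wild-type array, 4.08, was above the highest knockout array, 3.90, and the means were 4.44 ± 0.24 and 3.51 ± 0.48 (SD, n = 6 each). The difference was -0.93 (SE 0.22), a wild-type level 1.91 times the knockout level, and without M78-1, the lowest array, it was -0.76 (SE 0.15). Background controls averaged 1.54 to 2.10 per array, with a single control as high as 5.53, and all cortex values of Nnt lie below that highest control and above the control means. Of the 9 members measured, Nnt in cortex was the one whose genotypes did not overlap in a tissue with all 12 mice; among all probe sets, 0.59% did not overlap in ventricle and 0.576% in cortex.

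Por was higher in the knockout, where its values also spread less. In wild-type ventricle Por read 6.66, 5.85, 5.76, 6.72, 7.01 and 6.27, a range of more than 1 log2 unit. In knockout ventricle it read 6.94, 7.15, 7.09, 6.998, 7.03 and 7.14. All knockout mice lay within about 0.2 of each other, above every wild-type mouse but F76-2. The means were 6.38 ± 0.50 and 7.06 ± 0.08 (SD, n = 6 each) and the difference was 0.68 (SE 0.21), a knockout level 1.60 times that of the wild type. With each mouse left out in turn it ran from 0.56 (without M75-2) to 0.81 (without F76-2).

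The wild-type cortex arrays fell into a high and a low set for Por. M75-0, F76-1 and F76-2 read 7.57, 7.38 and 7.67, and M75-1, M75-2 and F76-3 read 6.25, 6.45 and 6.29. The 6 knockout mice read 7.61, 7.34, 7.57, 7.31, 7.36 and 7.32, at the level of the high wild-type mice. The difference of the means, 0.48 (SE 0.28), therefore sets a tight group (7.42 ± 0.14, SD) against a split one (6.94 ± 0.67). The wild-type SD of Por was 6.06 times the knockout SD in ventricle and 4.96 times in cortex, and a ratio at least as large was seen for 0.176% and 0.383% of all probe sets, whose median ratios were 1.11 and 1.04. Nnt had a ratio of 5.79 in ventricle, reached by 0.252% of probe sets, but 0.512 in cortex. The ratios of the other members ran from 0.286 (Idh2 in cortex) to 2.88 (Me3 in ventricle). The ratios come from the arrays by which the genes were picked, so they and the shares are a description and not a test.

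Nadk, the kinase that supplies cytosolic NADP+, was higher in the knockout in ventricle and level in cortex. Wild-type ventricle read 2.57, 3.06, 3.95, 3.70, 3.95 and 3.96, with the males M75-0 and M75-1 far below the rest. Knockout ventricle read 3.90, 4.22, 4.51, 4.38, 4.27 and 3.93. Of the knockout mice, 4 were above all wild-type mice, the means were 3.53 ± 0.58 and 4.20 ± 0.24 (SD, n = 6 each), and the difference was 0.67 (SE 0.26). In cortex the means were 4.43 ± 0.34 and 4.45 ± 0.17, a difference of 0.02 (SE 0.15), with the wild-type arrays at 4.05 to 4.94 and the knockout arrays at 4.27 to 4.73.

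**Figure D1:**
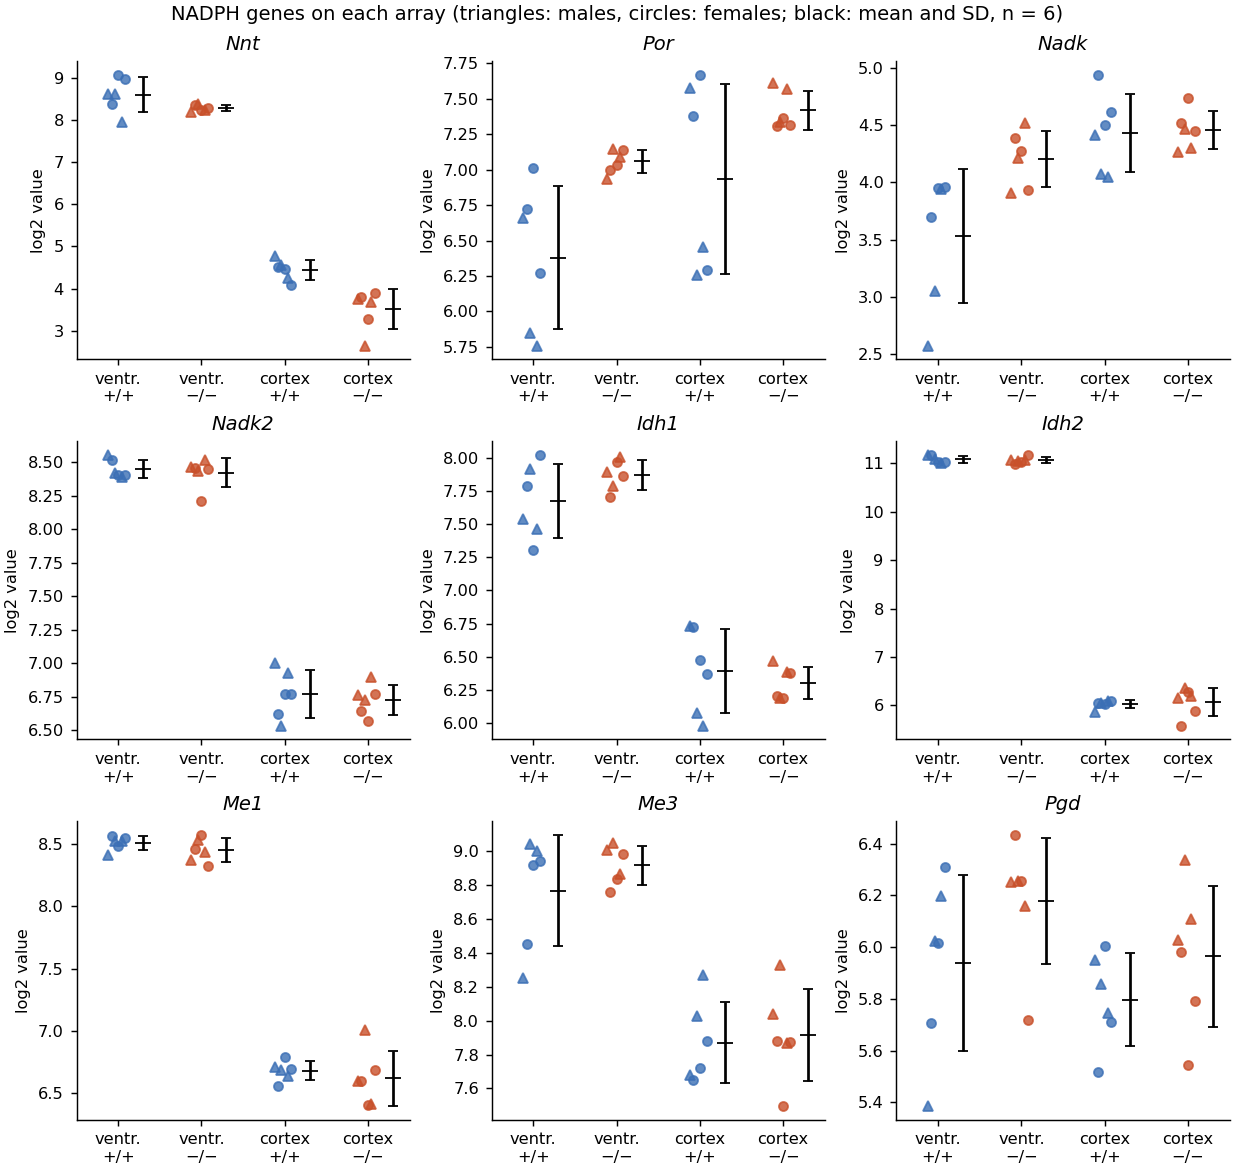
Log2 value of each of the 9 measured genes (1 panel per gene, each with its own log2 axis) on every array, by tissue and genotype; triangles are males, circles females, blue Tatdn1+/+ and orange Tatdn1-/-, and the black bar is the mean with its SD (n = 6). The knockout points of Por are tight in both tissues while the wild-type points spread, and the Nnt points of the genotypes are apart in cortex.

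The 6 other members differed less than Nnt, Por and Nadk did in ventricle, and less than Nnt and Por in cortex. Idh1, the cytosolic NADP-dependent isocitrate dehydrogenase, gave 0.20 (SE 0.12) in ventricle and -0.09 (SE 0.14) in cortex. Pgd, the second NADPH-forming step of the pentose phosphate pathway, gave 0.24 (SE 0.17) and 0.17 (SE 0.13), and the mitochondrial malic enzyme Me3 gave 0.15 (SE 0.14) and 0.04 (SE 0.15). Idh2, Me1 and Nadk2 lay between -0.06 and 0.05 in both tissues, and their genotypes overlapped in each. These are the contrasts by which the genes were picked, so they are given without a test. As background, limma called 0.0135% of probe sets in ventricle and 0.00901% in cortex at an adjusted p under 0.05.

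**Figure D2:**
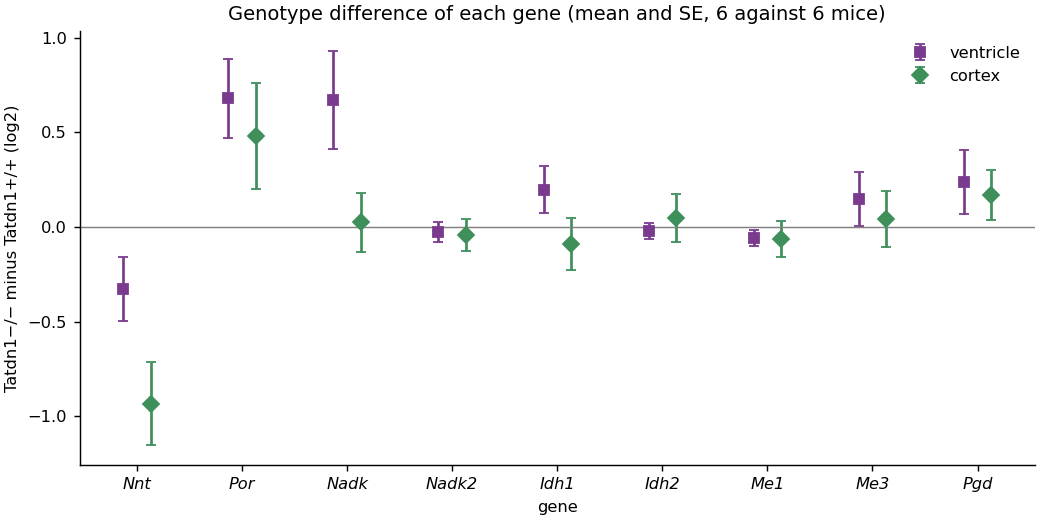
Tatdn1-/- minus Tatdn1+/+ difference of the mean log2 value for each of the 9 measured genes in ventricle (squares) and cortex (diamonds), with its SE from 6 mice against 6. Nnt lies below 0 in both tissues (-0.33 and -0.93), Por above 0 in both (0.68 and 0.48), and Nadk above 0 in ventricle alone (0.67, against 0.02 in cortex).

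The leading differences are also given within each sex. In ventricle Por differed by 0.97 (SE 0.29) among males and 0.39 (SE 0.22) among females, and Nadk by 1.02 (SE 0.44) and 0.33 (SE 0.16). Nnt differed by -0.13 (SE 0.23) among males and -0.52 (SE 0.22) among females in ventricle, and by -1.17 (SE 0.39) and -0.69 (SE 0.24) in cortex. The interaction of sex and genotype was tested with limma, and 0 of 9 members had an adjusted p, or an unadjusted p, under 0.05 in either tissue; over all probe sets the unadjusted p was under 0.05 for 5.27% in ventricle and 3.86% in cortex. Sex itself, with genotype in the model, likewise gave 0 calls among the members, where 0.018% of probe sets were called in ventricle and 0.018% in cortex. At an unadjusted p under 0.05 there were 0 members in ventricle (background 5.56%) and 2 in cortex (background 4.45%): the female minus male difference was 0.36 (SE 0.13) for Nadk and -0.29 (SE 0.13) for Me3. The adjusted p by limma was 0.967 for each.

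Other values that stood higher or lower in the knockout were read beside these differences. In ventricle the list of 15 genes that follow the time of day had a median difference of 0.23, with array means of 5.53 to 6.03 in wild type and 5.94 to 6.19 in knockout, and Dbp, a clock-output transcription factor, read 8.83 to 9.53 in wild type and 9.38 to 10.06 in knockout; its difference of 0.64 (SE 0.15) had an adjusted p of 0.25 by limma. These genes peak at different times of day, so the median hides moves in opposite directions. At the unadjusted threshold of 0.05, 3 of the 15 were higher and 2 lower in ventricle: Ciart stood at 1.24 (SE 0.49), Bhlhe41 at 0.67 (SE 0.17), Arntl at -0.71 (SE 0.28) and Nfil3 at -0.63 (SE 0.16), beside Dbp. In cortex the median was -0.05, and 3 of 15 were lower, Per2 at -0.82 (SE 0.23), Nfil3 at -0.38 (SE 0.14) and Per1 at -0.35 (SE 0.16). The 4 atrial markers had a median difference of 0.54 in ventricle, with array means of 4.67 to 5.34 in wild type. Of the knockout arrays F77-2 averaged 9.09 and the others lay inside the wild-type range. The marker difference without F77-2 was not computed. Without that array the ventricle differences of the members were -0.32 for Nnt, 0.68 for Por and 0.66 for Nadk. The 4 striatal markers had a median difference of 0.46 in cortex, with array means of 6.15 to 7.33 in wild type and 7.06 to 7.48 in knockout, and the 3 oligodendrocyte markers one of 0.34. Of the 5 neuron markers 4 were above 0 in ventricle (median 0.23), with Syt1 at 1.16 (SE 0.50), and the striatal marker Drd2 stood at 1.05 (SE 0.44) there; without the array of M78-1, which had the highest neuron markers, the ventricle differences were -0.35 for Nnt, 0.66 for Por and 0.67 for Nadk. In cortex the endothelial marker Pecam1 stood at -0.44 (SE 0.14; median of the 3 markers 0.10), the red blood cell marker Alas2 at 0.48 (SE 0.18) and the cardiomyocyte marker Tnnt2 at -0.56 (SE 0.25; median of 6 markers -0.01). None of the genes named here had an adjusted p under 0.05. The part of the time of day and of these markers in the members' differences was not tested. In whole tissue, fewer cells of a type and less RNA per cell cannot be told apart. The leading number in the code of a wild-type mouse is carried by no knockout mouse, so genotype cannot be told apart from any litter or cage that it may stand for. Among wild-type mice all males share the same leading number and all females another, so sex cannot be told apart from it there either.

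The contrast of the tissues was not used to pick the genes. In wild-type mice 6 of 9 members were higher in ventricle (limma, adjusted p under 0.05; background 29.3% of probe sets) and 1 was higher in cortex (background 26.3%). The mitochondrial isocitrate dehydrogenase Idh2 led, with 11.01 to 11.18 in wild-type ventricle and 5.87 to 6.09 in wild-type cortex, a difference of 5.06 (SE 0.11, adjusted p = 2.74e-17). Nnt followed, with 7.95 to 9.07 and 4.08 to 4.78, a difference of 4.16 (SE 0.18, adjusted p = 3.61e-13). Me1 (1.83, SE 0.11), Nadk2 (1.68, SE 0.12), Idh1 (1.28, SE 0.17) and Me3 (0.90, SE 0.16) were also higher in ventricle. Of these 6 genes, Me3 overlapped between the tissues: its lowest ventricle array (8.25) lay just under its highest cortex array (8.27). How many of all probe sets separate the tissues fully was not counted, so separation is not read as a trait of the others. Of the genes whose enzymes work in mitochondria, Nnt, Idh2, Nadk2 and Me3, all 4 were called upward. Of those of the cytosol Me1 and Idh1 were called upward, Nadk was called toward cortex and Pgd was not called. The compartments were not compared by a test.

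Nadk and Por lay on the other side. Nadk was 0.90 lower in ventricle than in cortex (SE 0.23, adjusted p = 0.00286), and with quantile normalisation the difference was -0.54 (SE 0.24) with an adjusted p of 0.067, no longer past the threshold. Por was 0.56 lower in ventricle (SE 0.28, adjusted p = 0.10) when the arrays were taken as independent. Each mouse gave both tissues, and with the mouse as a replicate block (paired) the difference of -0.56 had an SE of 0.15 and an adjusted p of 0.00529, with Por lower in the ventricle than in the cortex of 6 of 6 wild-type mice. Pgd differed by 0.14 (SE 0.16, adjusted p = 0.47).

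In the knockout mice, which are other animals, the same 6 genes were higher in ventricle (background 29.8%) and 1 member was higher in cortex (background 25.3%). Idh2 differed by 4.99 (SE 0.13), Nnt by 4.77 (SE 0.18), Me1 by 1.83 (SE 0.12), Nadk2 by 1.69 (SE 0.10), Idh1 by 1.57 (SE 0.10) and Me3 by 1.00 (SE 0.13), with the largest adjusted p of the 6 at 3.8e-06. Here it was Por that passed toward cortex (-0.36, SE 0.10, adjusted p = 0.00599), while Nadk gave -0.25 (SE 0.13, adjusted p = 0.12) and Pgd 0.21 (SE 0.15, adjusted p = 0.24). Whether the tissue difference of Por or Nadk itself depends on genotype was not tested, since that would reuse the contrast by which they were picked. Centring each array on its median moved the median tissue difference of all probe sets by 0.41 in wild type and 0.33 in knockout, and the share of called probe sets that were higher in ventricle from 52.7% to 75.7% and from 54.1% to 74.0%. Relative to that shift Por differed by -0.15 (adjusted p = 0.61) in wild type and -0.03 (adjusted p = 0.82) in knockout, Nadk by -0.49 (adjusted p = 0.0486) and 0.08 (adjusted p = 0.59), and Pgd was called higher in ventricle by 0.55 in each, while the 6 genes above kept their calls.

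**Figure D3:**
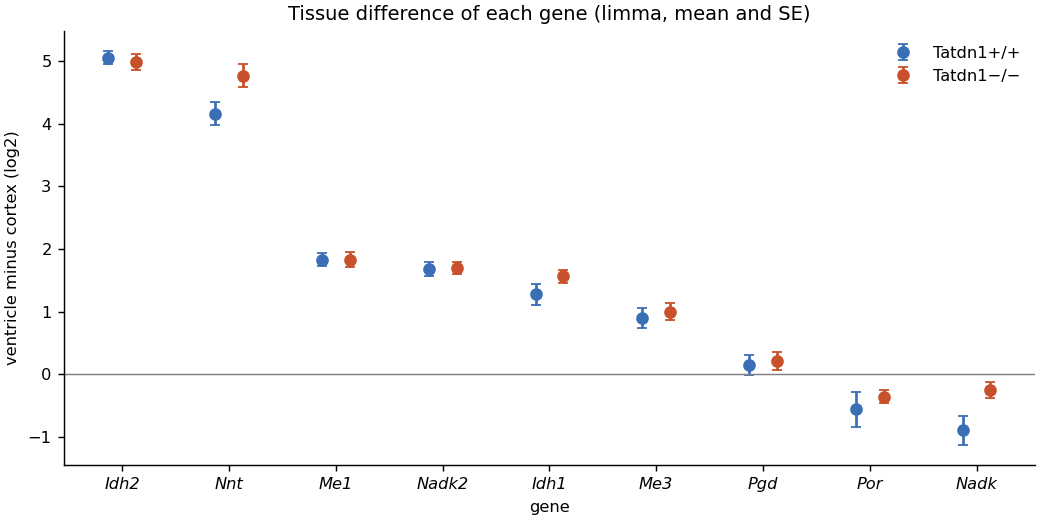
Ventricle minus cortex difference (log2) of each of the 9 measured genes in Tatdn1+/+ (blue) and Tatdn1-/- mice (orange), with its SE from limma (6 mice per genotype, 1 array per tissue), ordered by the wild-type difference. Idh2 (5.06 and 4.99) and Nnt (4.16 and 4.77) stand far above the rest, and Por and Nadk lie below 0.

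Por was followed mouse by mouse across the tissues. In ventricle the wild-type mice M75-0, F76-1 and F76-2 read 6.66, 6.72 and 7.01 and M75-1, M75-2 and F76-3 read 5.85, 5.76 and 6.27, so the 3 mice that were high in cortex were the 3 that were high in ventricle. Over 12 mice the deviations from the group means in the 2 tissues had a Pearson r of 0.85 (permutation p = 0.0588, adjusted over the 9 members p = 0.27) and a Spearman rho of 0.76 (permutation p = 0.0779, adjusted p = 0.35), two-sided, and r was 0.81 without the 2 mice farthest from the median in ventricle. The r of Por was exceeded or met by 14 of 22206 probe sets, itself included, and the median over all of them was -0.02. The 2 sets of 3 wild-type mice are split by a step in cortex alone. In ventricle F76-3 (6.27) lay nearer to M75-0 (6.66) than to M75-1 (5.85). How far the r rests on the step in cortex was not tested, and within the sets it could not be tested. Among the 6 wild-type mice alone r was 0.90 (exact permutation over 720 pairings, p = 0.0417) and rho 0.77 (exact permutation p = 0.10); among the 6 knockout mice, whose levels hardly vary, r was -0.47 (exact permutation p = 0.35). With sex also taken out, a setting added after the data had been seen, r was 0.91 (permutation p = 0.00885, adjusted p = 0.0398). That permutation shuffled mice within genotype but across the sexes. Values centred within each sex cannot be swapped freely between them, so this p can be too small and is not read as a call.

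Me3 had the next highest value among the members, with r = 0.61 (permutation p = 0.0261, adjusted p = 0.24) and rho = 0.71 (permutation p = 0.00573, adjusted p = 0.0516) over 12 mice. Without the 2 mice farthest from the median its r was 0.59, and with sex taken out it was 0.68 (permutation p = 0.00763, adjusted p = 0.0398). The limit of the shuffle across the sexes holds for this p too. Its order among wild-type mice was not that of Por: M75-0 and F76-1, high for Por, were the lowest for Me3 in both tissues, at 8.25 and 8.45 in ventricle and 7.68 and 7.65 in cortex. For Nnt the r was near 0 (r = -0.08, permutation p = 0.76, adjusted p = 0.96), and the other 6 members had an r between -0.10 and 0.47. In all, 9 relations were computed, and 0 had an adjusted p under 0.05 with the groups alone taken out.

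**Figure D4:**
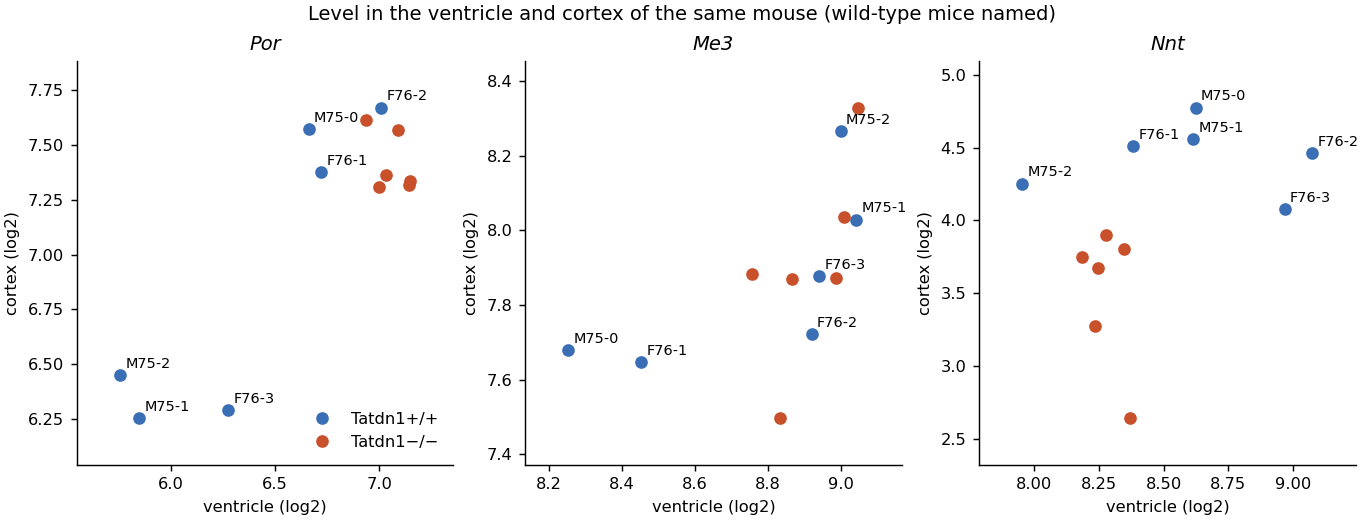
Log2 value in the ventricle (horizontal axis) and the cortex (vertical axis) of the same mouse for Por, Me3 and Nnt; each point is 1 mouse, blue Tatdn1+/+ (named) and orange Tatdn1-/-. The wild-type mice form a high and a low set for Por in cortex (7.38 to 7.67 and 6.25 to 6.45), while for Nnt the genotypes are apart in cortex and the mice keep no common order.

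The genes whose pattern over the 24 arrays was most like that of Por and Nnt, after the group means were taken out, were named by Pearson r as a description. For Por they were H2-DMa (r = 0.71), Ska2 (0.70), Magee2 (0.69), Rgs8 (0.67) and Zkscan7 (0.65). For Nnt they were Polh (0.77), Zfp119a (0.76), Ankub1 (0.76), Gosr1 (0.75) and Slc33a1 (0.75). The points share mice, arrays and normalisation. Genes next to the pair on the chromosome did not lead these lists: within 1 Mb of Por (chromosome 5, GRCm38.p6, 135670040 to 135735326) 43 measured genes had an r with Por of -0.30 to 0.40 (median -0.01), and within 1 Mb of Nnt (chromosome 13, 119335527 to 119409257) 17 genes had an r with Nnt of -0.59 to 0.41 (median 0.02).

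The promoters of Por and Nadk, the 2 genes that stood higher in knockout ventricle, are shown so that their make-up can be compared. They are the 250 bases before the start of transcription in RefSeq (GRCm38.p6), of which the table used here has 1 for Por and 2 for Nadk, and 8 of the 10 members have at least 1 there. Capitals mark the motifs searched on both strands: GGGCGG (the GC box bound by Sp factors), CCAAT (the CCAAT box), CACGTG (the E-box that clock and MYC factors bind) and TGACNNNGC (the core of the antioxidant response element). The first is at chr5:135688895-135689144 on the plus strand, and the pair of Nadk windows at chr4:155562131-155562380 and chr4:155563565-155563814, also plus. The Por window and the second Nadk window each lie inside the annotated span of their gene, before an internal start.
Por: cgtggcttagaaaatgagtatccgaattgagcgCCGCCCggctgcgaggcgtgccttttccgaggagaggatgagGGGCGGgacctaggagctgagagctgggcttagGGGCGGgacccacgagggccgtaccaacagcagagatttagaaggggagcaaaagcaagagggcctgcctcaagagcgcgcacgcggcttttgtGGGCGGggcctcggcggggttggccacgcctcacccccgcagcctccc
Nadk promoter 1: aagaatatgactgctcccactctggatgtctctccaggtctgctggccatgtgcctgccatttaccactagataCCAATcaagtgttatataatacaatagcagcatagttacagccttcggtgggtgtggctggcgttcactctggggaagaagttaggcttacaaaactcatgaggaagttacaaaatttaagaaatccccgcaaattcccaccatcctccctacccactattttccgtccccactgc
Nadk promoter 2: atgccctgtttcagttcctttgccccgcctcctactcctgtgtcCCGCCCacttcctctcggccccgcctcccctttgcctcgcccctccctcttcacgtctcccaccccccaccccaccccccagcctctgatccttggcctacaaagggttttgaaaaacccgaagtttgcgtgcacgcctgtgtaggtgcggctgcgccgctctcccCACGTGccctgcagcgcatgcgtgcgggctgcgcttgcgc
The Por sequence held 4 GC boxes and none of the other motifs and was 65.6% G and C. The first Nadk sequence held 1 CCAAT box and 0 GC boxes at 46.8% G and C, and the second held 1 GC box and 1 E-box at 66.0%. Of all 32851 promoters, 32.7% held a GC box, 33.9% a CCAAT box, 6.02% an E-box and 10.2% the antioxidant core in the same 250 bases. A match is a run of letters, not a measured binding site.

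Other genes of NADPH supply and use were counted for genotype, from 10 lists that held 112 measured genes of 124 written. By limma, 0 of 112 genes had an adjusted p under 0.05 in either tissue. At an unadjusted p under 0.05, 8 were higher and 5 lower in knockout ventricle, 7.14% and 4.46% of the genes, against 5.08% and 3.37% of all probe sets. In cortex 3 were higher and 10 lower, 2.68% and 8.93%, against 2.39% and 4.59%. Their median difference was 0.04 in ventricle and -0.06 in cortex, beside 0.02 and -0.02 for all probe sets.

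A list of 22 genes held Por partners and other P450 and haem genes, not all of which take electrons from Por. Of these, 4 of 22 were higher and 1 lower in ventricle at the unadjusted threshold (median difference 0.04). Cyp2j9, a P450, stood at 0.62 (SE 0.18), Cyp2e1, which oxidises ethanol and small solvents, at 0.60 (SE 0.26), the haem oxygenase Hmox1 at 0.60 (SE 0.24) and Cyp4f13 at -0.31 (SE 0.13). In cortex 1 of 22 was higher and 1 lower: Cyp46a1, the neuronal cholesterol 24-hydroxylase, stood at 0.26 (SE 0.11) and Cyp2u1 at -0.33 (SE 0.12). The lowest adjusted p of these was 0.39, and Cyp2e1 read 1.30 and 1.91 in wild-type and knockout ventricle, within or below the array means of the background controls.

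Of the genes that feed NADP+ or carry NAD, Nmrk1, the nicotinamide riboside kinase, stood at 1.00 (SE 0.35, adjusted p = 0.46 by limma) in ventricle, with means of 2.21 and 3.21 close above the background controls, and Noct, a phosphatase that turns NADP(H) back into NAD(H), at -0.33 (SE 0.13). In cortex Slc25a51, the mitochondrial NAD+ carrier, stood at -0.39 (SE 0.13), and the median of the 10 genes was -0.14. H6pd, which runs the first pentose phosphate steps inside the endoplasmic reticulum, stood at 0.34 (SE 0.15) in ventricle and -0.03 (SE 0.18) in cortex, with 1 of 5 genes of that pathway higher in ventricle and 0 in cortex at the unadjusted threshold.

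The folate cycle, another source of mitochondrial NADPH, showed 0 of 8 genes in ventricle and 3 of 8 lower in cortex at an unadjusted p under 0.05. These were Aldh1l2 (-0.64, SE 0.17, adjusted p = 0.36 by limma), Shmt2 (-0.46, SE 0.18) and Mthfd2 (-0.34, SE 0.12). Aldh1l2 was dim in cortex (2.53 and 1.89). Of the other genes of the list, Mthfd2l stood at 0.21 (SE 0.18) and Mthfd1l at -0.0024 (SE 0.19), and the median of the list was -0.05. The other dehydrogenases and carriers gave 0 of 9 in either tissue.

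On the side of use, lipid and sterol synthesis spends NADPH at some of its steps, but not every gene of its list codes for an NADPH-using enzyme. Of its 10 genes, 2 were lower in each tissue at the unadjusted threshold and 0 were higher. Scd1, the stearoyl-CoA desaturase, was among them in both, at -0.38 (SE 0.16) in ventricle and -0.53 (SE 0.17) in cortex, with Lss, lanosterol synthase, at -0.52 (SE 0.21) in ventricle. Of 19 glutathione and thioredoxin genes, 1 was higher in ventricle (Txnrd3, 0.42, SE 0.16), and in cortex 1 was higher (Gpx4, 0.30, SE 0.13) and 1 lower (Txnrd1, -0.25, SE 0.10). The NADPH oxidases gave 0 of 8 in ventricle and 1 of 8 lower in cortex (Ncf1, -0.45, SE 0.21). A mixed list of other flavin enzymes and of redox proteins without flavin gave 1 of 11 lower in each tissue. These were Nos1 (-0.39, SE 0.16) in ventricle and Cbr1, a carbonyl reductase without flavin (-0.44, SE 0.20), in cortex. The list for NRF2, the factor that drives antioxidant genes, held 17 measured genes: targets, NRF2 itself (Nfe2l2) and its regulators Keap1 and Bach1. In ventricle 2 were higher, the target Hmox1 and Keap1, which holds NRF2 down (0.25, SE 0.11). In cortex Ftl1 was higher (0.29, SE 0.14) and Txnrd1 lower.

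**Figure D5:**
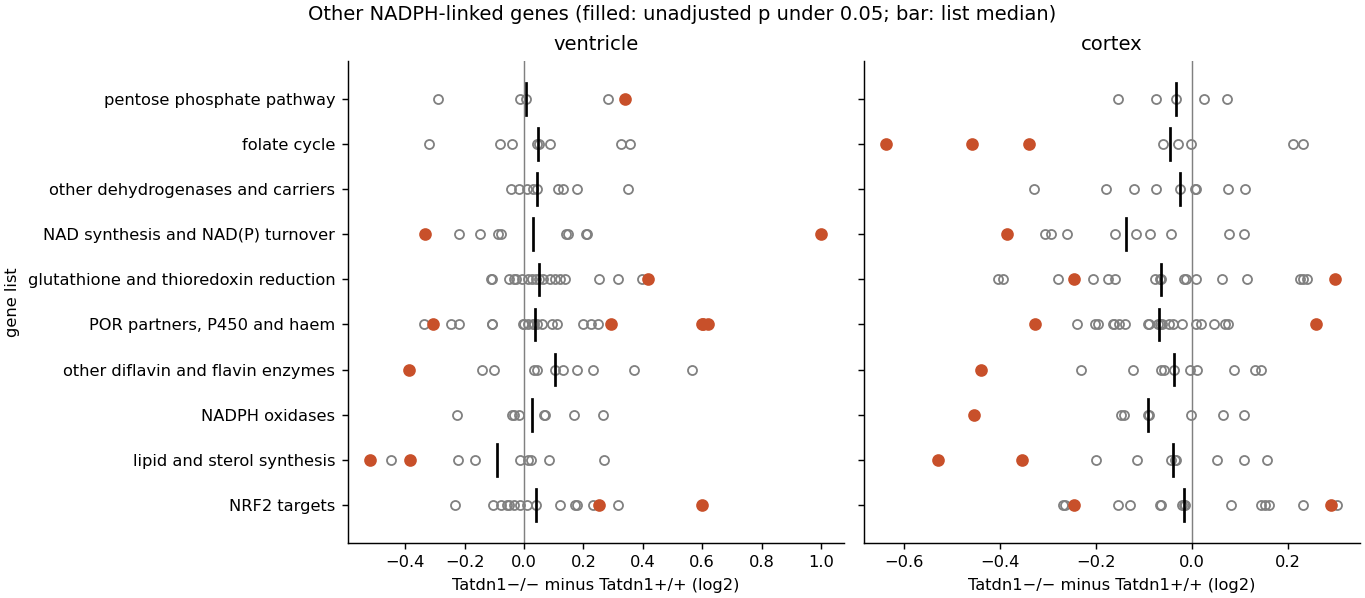
Tatdn1-/- minus Tatdn1+/+ difference (log2, horizontal axis) of every measured gene of the 10 other NADPH lists (1 row each) in ventricle and cortex; filled points have an unadjusted p under 0.05 by limma, open points do not, and the bar is the list median. The medians lie close to 0 (0.04 over all 112 genes in ventricle and -0.06 in cortex), with Nmrk1 farthest to the right in ventricle at 1.00.

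The same lists were also counted between the tissues of wild-type mice. Of the 112 genes, 46.4% were called higher in wild-type ventricle, against 29.3% of all probe sets, and 28.6% higher in cortex, against 26.3%. Of the 10 lipid and sterol genes 9 were called higher in cortex (median -1.83), with Elovl6, a fatty acid elongase, 4.98 lower in ventricle (SE 0.17, adjusted p = 1.26e-14). Of the 19 glutathione and thioredoxin genes 11 were called higher in ventricle and 2 in cortex (median 0.76), with Prdx3, the mitochondrial peroxiredoxin, at 2.73 (SE 0.13, adjusted p = 1.04e-12). On the list of Por partners and other P450 and haem genes, 6 of 22 were called higher in ventricle and 9 in cortex. Among the latter were Cyp46a1 (-6.24, SE 0.18) and squalene epoxidase, Sqle (-3.99, SE 0.19).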

How the data were processed

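The series gives Mouse Clariom S HT arrays of 24 samples. The authors made the deposited log2 values from the scanner files with RMA (per the labels; version not given in the sources used here), which corrects background, quantile-normalises and summarises probe sets. They were used as deposited. Entries other than gene-level probe sets (6923 of 29129) were left out, and 105 probe sets were named through the study's supplementary table. The number of arrays limits the precision. Members and lists were chosen with earlier results of these data known.

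Contrasts were fitted by lmFit and eBayes (limma 3.58.1, R 4.3.3), with Benjamini-Hochberg adjustment over 22206 probe sets and a threshold of 0.05. Same-mouse relations used 100000 permutations within genotype (Python 3.11.15, scipy, seed 5). Heart and brain arrays were paired by the animal code in the labels. Over all probe sets the deviations of a mouse's 2 arrays correlated by -0.08 to 0.05, and 0 ventricle arrays correlated best with their own cortex array. The pairing, and the paired and same-mouse results, therefore rest on the codes alone. Of each other list, at most 4 genes with the smallest p were named, with 2 exceptions. For the folate cycle in cortex Mthfd2l and Mthfd1l were named as well, and for the time of day in ventricle 5 genes were named. The 5 most similar genes were named for Por and Nnt. The values of 1 gene of these lists are not reported here. The fits were tested on simulated data. Taking out sex in the same-mouse relations, and testing them within each genotype, were chosen after seeing the data. Alternatives were quantile normalisation, array centring, removal of the dimmest 30% of probe sets, a trend with a robust fit, array weights, sex as a term, the sexes taken singly and each mouse left out in turn.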

Additional observations from a re-analysis of the deposited data

Results flagged for a closer look

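Of 36 sets of 6 arrays (9 genes, 4 groups), 2 held an array whose gap to its neighbour exceeded Dixon's critical share of the range for 6 samples, and chance gives about 1 in 20. Nadk2 read 8.21 in the knockout ventricle of F77-2, with the other 5 arrays at 8.44 to 8.52 (gap 0.736 of the range). That array is also the one with the high atrial markers. Idh2 read 5.87 in the wild-type cortex of M75-0, with the other 5 at 6.02 to 6.09 (gap 0.693 of the range).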

How the results depend on the processing

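Of 1214 values recomputed under an alternative, 1180 kept their direction and side of the threshold, or moved by less than the replicate spread or, for counts, by no more than 1.5 times. With the mouse as a replicate block (paired), Por in wild type was called (-0.56, adjusted p = 0.00529), and no other member's tissue call changed. Array centring turned Nadk in knockout between tissues to 0.0818. Taking out sex turned the same-mouse r of Nnt to 0.0179 and raised the count of same-mouse relations under the threshold from 0 to 2. Those 2 rest on the shuffle across the sexes, whose p can be too small. Members whose genotypes do not overlap numbered 0 in ventricle, 0 to 1 without 1 mouse (1 without M75-2 or F76-2, where 0.95% and 1.05% of all probe sets did not overlap), and 1 among males alone and 1 among females alone, where 12.9% and 11.4% of all probe sets did not. In cortex they numbered 1, and 3 among males alone, where 10.3% of all probe sets did not overlap. Among the other NADPH genes at an unadjusted p under 0.05, the 8 higher in ventricle became 5 with quantile normalisation or array centring and 5 to 11 without 1 mouse (5 without M75-0, F76-2, M77-1 or F77-2). The 5 lower became 3 with a trend and a robust fit and 2 to 8 without 1 mouse (2 without F77-1 or F77-3, 3 without M75-0 or M75-2, 8 without M75-1). In cortex the 3 higher became 5 with quantile normalisation or centring and 0 to 6 without 1 mouse (0 without F76-1, 1 without F77-1, F77-2 or M77-1, 6 without F76-2), and the 10 lower became 7 to 11 without 1 mouse. Over all probe sets, quantile normalisation changed the 1129 higher and 749 lower in ventricle to 855 and 930, and the 531 and 1020 in cortex to 748 and 786. Each member has 1 probe set, so averaging probe sets could change nothing, and those values are still counted among the 1180. A member's genotype difference that changed sign within the replicate spread is counted there too. The lowest values of Nnt in cortex (2.64) and Nadk in ventricle (2.57) lie within the range of the array medians over all entries. How far dimness limits them was not tested.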
